A study of Mus musculus with 3 samples.

Results

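Complement is a chain of blood and tissue proteins that tags microbes, dying cells and debris for removal and calls in immune cells. This account follows the messenger RNA of 9 complement genes, namely C1qa, C1qb, C1qc, C1ra, C1s1, C4b, C3, Cfb and Serping1, through the cell types of the mouse pancreas. The 9 were chosen by symbol from the 55450 genes in the deposited tables. RNA was counted in single cells dissociated from pancreas, in 3 libraries, 1 for each group, made with version 3 chemistry of the 10x Chromium 3-prime kit. The first library is labelled none and sedentary, the second diabetic and sedentary, and the third diabetic-Exercise and exercise. According to the series text, males of the db/db strain were put on a treadmill from 6 weeks of age. These mice have a broken leptin receptor and develop obesity and diabetes. What genotype and age stand behind the none label, and how many mice went into a library, the sources used here do not say.

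C1q, built from the chains encoded by C1qa, C1qb and C1qc, is the part of the first complement complex that recognises a target, and tissue macrophages are its best known source. C1r and C1s, the proteases that C1q carries, are encoded in the mouse by C1ra and C1s1. C1s cuts C4, whose gene here is C4b, and cut C4 attaches to the surface nearby. C3 is the protein on which all complement pathways meet, and factor B, the product of Cfb, is the protease with which the alternative pathway cuts more C3. Serping1 encodes C1 inhibitor, which blocks C1r and C1s and also the contact system of coagulation.

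On GRCm38, with GENCODE M21 genes, the 3 C1q chains lie side by side on chromosome 4, all on the minus strand. C1qb (ENSMUSG00000036905) spans chr4:136880129-136886187, C1qc (ENSMUSG00000036896) chr4:136889804-136893065 and C1qa (ENSMUSG00000036887) chr4:136895917-136898803, with gaps of 3616 and 2851 bases between them. C1ra (ENSMUSG00000055172, chr6:124512405-124523443, plus strand) and C1s1 (ENSMUSG00000038521, chr6:124530345-124542359, minus strand) are neighbours on chromosome 6 whose annotated 3′ ends face each other across 6901 bases. C4b (ENSMUSG00000073418, chr17:34728380-34743882), Cfb (ENSMUSG00000090231, chr17:34856374-34862518) and C3 (ENSMUSG00000024164, chr17:57203970-57228136) are on the minus strand of chromosome 17. Serping1 (ENSMUSG00000023224, chr2:84765387-84775444) is on the minus strand of chromosome 2.

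The promoters below belong to pairs of neighbours whose RNA came from the same cell types, and to C3, the most abundant member. Each run gives the 200 bases before a gene's start, 5′ to 3′ on the gene's own strand, from RefSeq on GRCm38.p6, where 5 of the 9 genes were matched. RefSeq's starts can differ from those of GENCODE: the C1ra run lies inside the GENCODE span given above, and the C1qc run overlaps the end of its span. The capitals mark matches to any of 5 short motifs, searched on both strands from 250 bases before the start to 50 after it. These were the PU.1 and other ETS core GAGGAA, the C/EBP core TTNNGNAA, the STAT core TTCNNNGAA, the kappaB core (GGG, any 5 bases, CC) and the IRF core (GAAA, any 2 bases, GAAA). Matches may overlap one another.
C1qb, chr4:136886201-136886400, minus strand: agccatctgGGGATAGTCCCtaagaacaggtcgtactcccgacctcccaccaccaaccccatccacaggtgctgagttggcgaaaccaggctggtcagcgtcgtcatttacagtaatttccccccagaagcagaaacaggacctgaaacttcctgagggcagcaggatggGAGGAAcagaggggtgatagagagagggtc
C1qc, chr4:136892915-136893114, minus strand: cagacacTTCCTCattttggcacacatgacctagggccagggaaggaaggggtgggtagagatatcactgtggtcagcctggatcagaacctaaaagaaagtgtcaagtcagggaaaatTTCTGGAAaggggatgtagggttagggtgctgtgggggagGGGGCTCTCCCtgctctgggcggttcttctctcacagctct
C1ra, chr6:124512421-124512620, plus strand: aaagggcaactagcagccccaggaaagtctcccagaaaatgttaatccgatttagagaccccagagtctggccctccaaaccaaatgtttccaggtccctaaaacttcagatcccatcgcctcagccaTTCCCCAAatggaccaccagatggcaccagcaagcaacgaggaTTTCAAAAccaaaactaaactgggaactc
C1s1, chr6:124542360-124542559, minus strand: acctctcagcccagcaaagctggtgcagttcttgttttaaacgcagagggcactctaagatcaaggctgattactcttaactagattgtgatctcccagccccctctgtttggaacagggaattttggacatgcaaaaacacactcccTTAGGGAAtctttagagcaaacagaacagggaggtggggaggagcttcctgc
C3, chr17:57228137-57228336, minus strand: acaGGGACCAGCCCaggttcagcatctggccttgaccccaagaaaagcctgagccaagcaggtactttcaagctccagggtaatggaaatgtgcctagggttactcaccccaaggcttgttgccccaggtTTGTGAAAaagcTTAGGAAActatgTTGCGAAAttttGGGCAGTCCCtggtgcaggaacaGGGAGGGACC
Of 32851 RefSeq promoter windows of this length, 28.3% held the ETS core, 40.7% the C/EBP core, 8.30% the STAT core, 50.8% the kappaB core and 3.44% the IRF core. C1qb and C1qc each held 1 ETS core, GAGGAA at positions -30 to -25 and TTCCTC at -193 to -188 from the start. C3 held 3 separate stretches with a C/EBP core, at -70 to -63, -58 to -51 and -45 to -38, and 3 with a kappaB core. C1ra had 3 C/EBP stretches, of which that at 17 to 24, like its STAT core at 33 to 41 and its ETS core at 45 to 50, lies after the start and outside the run shown. C1s1 had 2 C/EBP stretches, of which that at -242 to -235 lies before the run. C1qc had 1 C/EBP stretch, at -81 to -74. None of these 5 windows held the IRF core. A match is a description of the letters and not a bound site.

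The deposited tables held 9958, 12743 and 18433 barcodes in the none, diabetic and diabetic-Exercise libraries, with 54128454, 80185752 and 45209034 unique molecular identifiers (UMIs, counts of single captured RNA molecules). After filtering, 8711, 11019 and 15069 cells were kept, and the members made up 0.0289%, 0.0250% and 0.0280% of their UMIs. The libraries differ in depth, with medians of 3951.5, 4640 and 1887 UMIs per barcode, and in the median mitochondrial share, 0.708%, 2.20% and 6.995%. Cells were clustered without any complement gene and named from listed markers, each name ending in "-like". Kept cells of different libraries shared 27, 30 or 42 barcode sequences per pair of libraries. Acinar digestive enzyme RNA reached every class and took 48.0%, 37.4% and 31.6% of the UMIs of fibroblast-like cells and 44.3%, 31.6% and 29.0% of those of macrophage-like cells, in the order none, diabetic, diabetic-Exercise. Levels below are CPM, a gene's UMIs relative to all UMIs of its class in a library, scaled within the class by trimmed means of M-values (TMM) unless called unscaled. The kit counts 3′ ends, so gene length does not enter them. Because 1 library stands for each group, there is no test and no replicate error. The 95% intervals cover counting error only, and a difference between libraries cannot be told apart from a difference between mice or preparations.

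The 9 genes divided by source in sums over the 3 libraries. The 3 C1q chains came mainly from macrophage-like cells, C1ra, C1s1, C3 and Serping1 mainly from fibroblast-like cells, and C4b from several classes. Cfb, over the 3 libraries together, came mainly from ductal-like cells. Macrophage-like cells, 2.33% of kept cells and 1.91% of all UMIs, held 82.4% of 9143 C1qa UMIs, 87.4% of 9010 C1qb UMIs and 88.5% of 5263 C1qc UMIs. Fibroblast-like cells, 3.36% of cells and 2.62% of UMIs, held 80.4% of 6259 Serping1 UMIs, 76.6% of 1265 C1s1 UMIs, 72.1% of 616 C1ra UMIs and 69.3% of 11682 C3 UMIs. Mesothelial-like cells, the lining of the organ's surface, were 0.175% of cells and held 15.2% of C3 UMIs, 8.44% of C1ra, 7.78% of Serping1 and 6.88% of C1s1. The 1276 UMIs of C4b were spread, with 33.0% in fibroblast-like, 26.3% in acinar-like, 17.7% in macrophage-like and 15.8% in ductal-like cells. In none alone the order was another, with 80 of 206 C4b UMIs in macrophage-like, 49 in fibroblast-like and 10 in ductal-like cells. Of only 100 Cfb UMIs, 53 were in ductal-like, 14 in fibroblast-like, 13 in mesothelial-like and 12 in acinar-like cells. In none, 0 of the 14 Cfb UMIs were in ductal-like and 8 in mesothelial-like cells. The RNA in acinar-like cells, by far the most numerous class, was spread thinly: no acinar-like cell held more than 4 UMIs of any member.

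**Figure D1:**
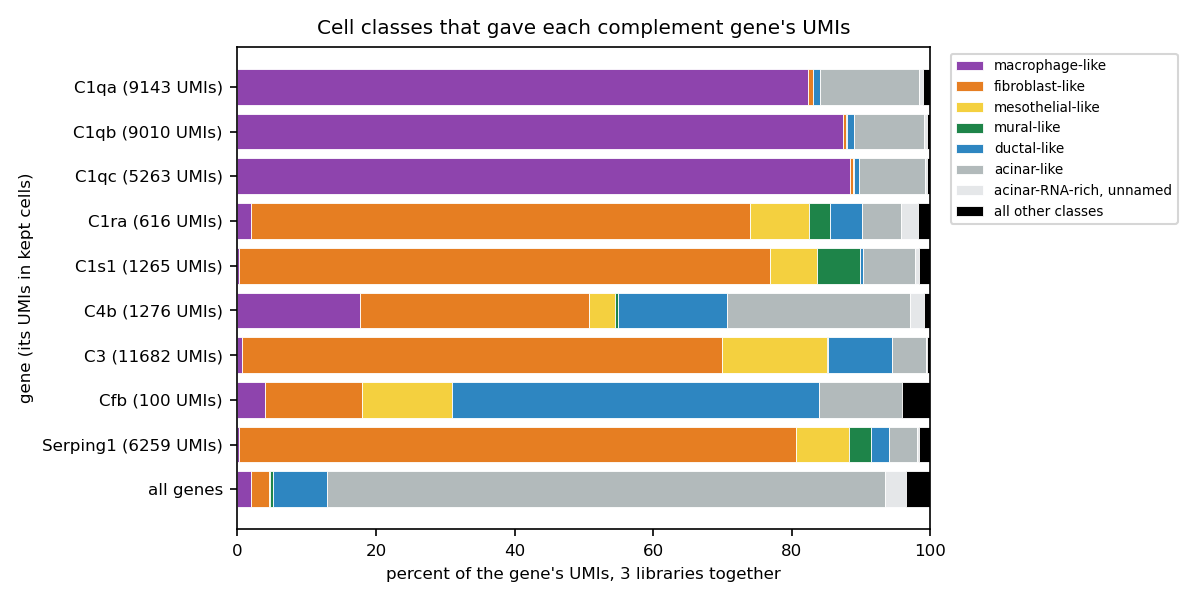
Each bar shows the percent of a gene's UMIs, summed over the 3 libraries, that fell in each cell class, with the UMIs of all genes in the lowest bar. The C1q bars are mostly macrophage-like (82.4% to 88.5%), the C1ra, C1s1, C3 and Serping1 bars mostly fibroblast-like (69.3% to 80.4%), and C4b is divided among 4 main classes.

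**Figure D2:**
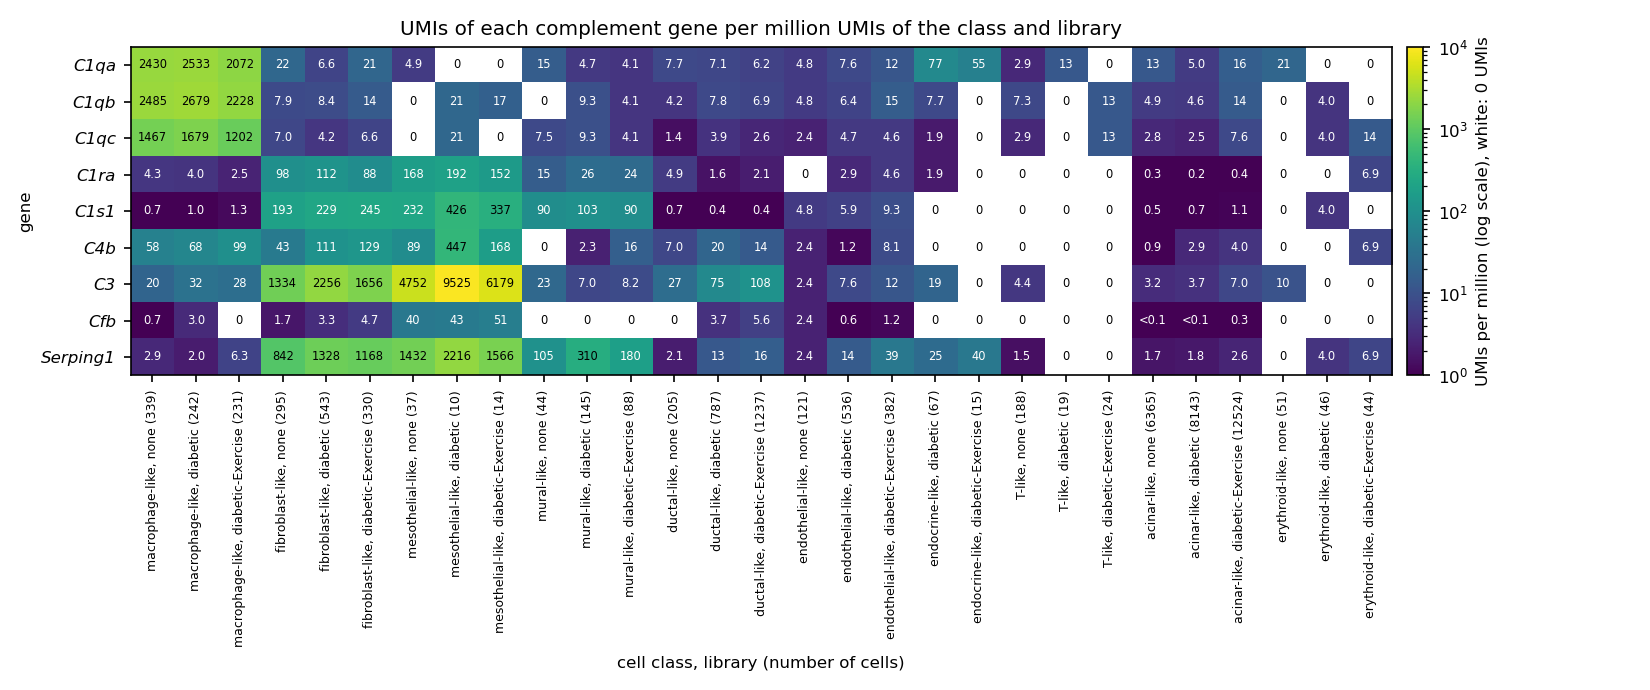
Unscaled CPM of each gene (log colour scale, white for 0 UMIs) in 10 classes, 1 column for each library, with the number of cells in parentheses. C3 and Serping1 are highest in mesothelial-like and fibroblast-like cells, and the 3 C1q chains in macrophage-like cells of every library.

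In macrophage-like cells (339, 242 and 231 cells), in which all 21 macrophage markers were detected in every library, the C1q chains lay between 1076 and 2988 CPM. C1qa stood at 2921 CPM (2823 to 3021, 3360 UMIs) in none, 2353 CPM (2532 UMIs) in diabetic and 1856 CPM (1638 UMIs) in diabetic-Exercise. C1qb stood at 2988, 2488 and 1995 CPM in the same order, and C1qc at 1763, 1559 and 1076 CPM. On this scale all 3 chains were highest in none and lowest in diabetic-Exercise, and the intervals of a chain did not overlap between libraries. C1qa in diabetic was 0.806 times its level in none (0.765 to 0.848), but 1.04 times with total UMIs as the scale and 0.850 times with the UMIs outside acinar markers. C1qb gave 0.833 and C1qc 0.884 with TMM and likewise 1.08 and 1.14 with total UMIs, so the order of none and diabetic depends on the scale. Diabetic-Exercise over diabetic was 0.789 (0.741 to 0.840) for C1qa, 0.802 for C1qb and 0.690 for C1qc. These ratios were below 1 under each of the 13 alternatives run, of which a minimum of 10 or 50 UMIs cannot change a ratio. The log2 values of these ratios, -0.34, -0.32 and -0.53, came to -4.69, -5.03 and -5.22 when the libraries were clustered apart. There the macrophage-like class of diabetic-Exercise took in a cluster rich in acinar RNA. Between diabetic-Exercise and none the TMM ratios were 0.635, 0.668 and 0.611 for C1qa, C1qb and C1qc.

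The share of macrophage-like cells with at least 1 UMI of C1qa was 81.4% in none, 67.4% in diabetic and 61.5% in diabetic-Exercise, at median depths of 3843, 3511.5 and 2370 UMIs. With every cell thinned to 1000 UMIs the shares were 71.6%, 59.2% and 53.8%. In acinar-like cells, which should lack C1q, 7.45%, 3.60% and 3.71% of cells had a C1qa UMI at median depths of 4638, 5924 and 1968 UMIs. All 3 chains were seen together in 73.2%, 56.6% and 43.7% of macrophage-like cells, while 48, 56 and 59 cells had no UMI of any chain. Thus the shares of macrophage-like cells with the chains ran in the same order as the TMM-scaled levels. For C1qa the counting intervals of the shares in diabetic and diabetic-Exercise overlapped. No class was named monocyte-like or dendritic-like, and the part of such cells in these shares was not tested.

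The macrophage-like cells were then divided by Lyve1, Folr2 and Cd163, markers of resident, vessel-associated macrophages. This division was chosen after the data had been seen and is descriptive. Cells with a UMI of any of the 3 made up 60.2% (54.7 to 65.4) of the class in none, 45.0% in diabetic and 32.0% in diabetic-Exercise, or 43.3%, 32.0% and 25.4% after thinning. C1qa in these cells was 2973, 3344 and 3218 unscaled CPM, and 1592, 1940 and 1502 in the remaining cells. Within each library C1qa was therefore 1.87, 1.72 and 2.14 times higher in the cells with these markers. Inside each division of the class, scaled by the UMIs outside acinar markers, C1qa in diabetic was 0.955 and 0.959 times its level in none, with and without the markers. For diabetic-Exercise over diabetic the ratios were 0.878 and 0.771. C4b followed the same division, at 94.2, 135 and 251 unscaled CPM (79, 57 and 66 UMIs) with the markers and 1.84, 19.1 and 22.7 (1, 11 and 12 UMIs) without. C3 had few UMIs here, 8, 7 and 3 with the markers and 19, 25 and 19 without. Its level with the markers was 0.273, 0.383 and 0.317 times that without, and the intervals of the levels overlapped in diabetic and diabetic-Exercise.

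**Figure D3:**
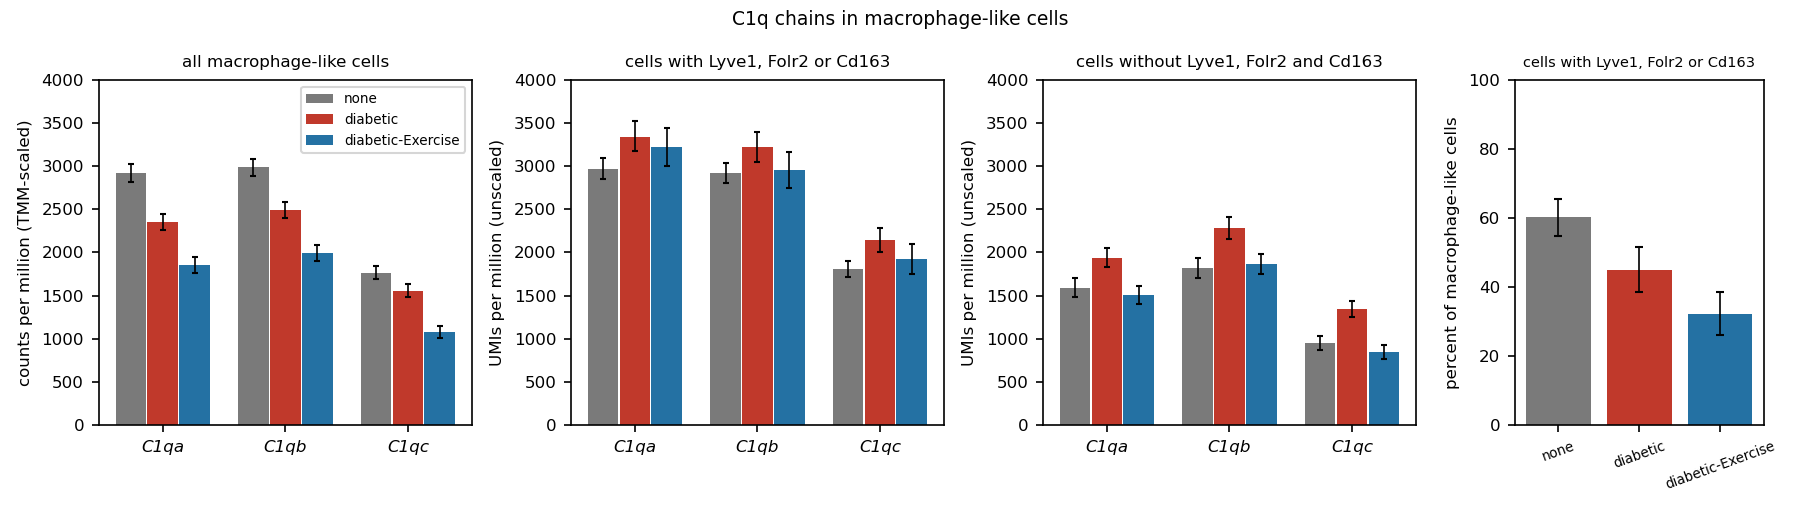
C1q chains in macrophage-like cells by library, as TMM-scaled CPM in all cells and as unscaled CPM in cells with and without Lyve1, Folr2 or Cd163, and the percent of cells with these markers; bars carry 95% counting intervals (Poisson, or Clopper-Pearson for the percent). In all cells each chain steps down from none to diabetic to diabetic-Exercise (C1qa from 2921 to 2353 to 1856 CPM), whereas with total UMIs as the scale diabetic is above none, as in both divisions; the share with the markers goes from 60.2% to 45.0% and 32.0%.

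Outside macrophage-like cells the C1q chains were low, and C1qa departed from the other chains. C1qa made up 38.1%, 36.8% and 37.7% of the summed UMIs of the 3 chains in macrophage-like cells. In acinar-like cells of none the share was 61.9% (58.6 to 65.2), and in clusters 2 and 5, which hold most of this library's acinar-like cells, it was 65.9% and 58.4%. In acinar-like cells of diabetic and diabetic-Exercise it was 41.5% and 42.1%. In fibroblast-like cells of none C1qa was 59.5% (43.3 to 74.4) of the 3 chains, from 25 C1qa UMIs. In the 67 endocrine-like cells of diabetic there were 40 C1qa UMIs against 4 of C1qb and 1 of C1qc, a share of 88.9% (75.9 to 96.3), with 17 of the 40 in 1 cell. The 15 endocrine-like cells of diabetic-Exercise held 11 C1qa UMIs and 0 of either other chain. No annotated gene overlaps C1qa, and the origin of these reads was not tested.

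**Figure D4:**
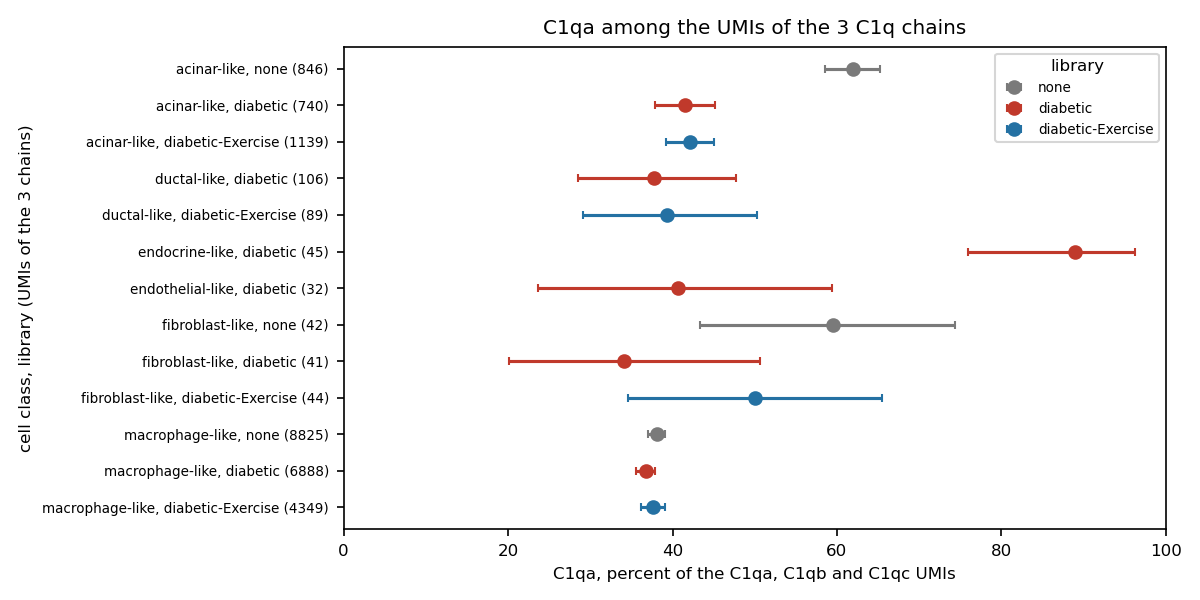
Percent of the summed C1qa, C1qb and C1qc UMIs that were C1qa, by class and library, with 95% Clopper-Pearson intervals and the summed UMIs in parentheses. Macrophage-like cells lie between 36.8% and 38.1%, acinar-like cells of none at 61.9% and endocrine-like cells of diabetic at 88.9%.

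In acinar-like cells C1qa was 13.4 CPM in none, 5.99 in diabetic and 12.3 in diabetic-Exercise (524, 307 and 480 UMIs). C1qb was 5.22, 5.48 and 10.98 CPM and C1qc 3.02, 2.97 and 5.93 CPM. All 3 chains were thus about 2-fold higher in diabetic-Exercise than in diabetic, at 2.06, 2.003 and 1.9986 times. The summed macrophage markers in acinar-like cells were also highest in diabetic-Exercise, at 79.9, 69.5 and 223.5 unscaled CPM. With total UMIs as the scale, the ratios of diabetic-Exercise to diabetic were 3.15 for C1qa, 3.07 for C1qb and 3.06 for C1qc. C1qa of none, at 13.4 CPM, did not follow the markers. The part of the markers in the result was not tested. Different clusters held the acinar-like cells of each library: clusters 2 and 5 most of none (4152 and 1926 cells), cluster 1 the largest number of diabetic (3608) and cluster 0 that of diabetic-Exercise (5895).

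C1ra and C1s1, the proteases of the first complex, were highest in mesothelial-like and fibroblast-like cells and lower in mural-like cells. In fibroblast-like cells (295, 543 and 330 cells), in which all 22 fibroblast markers were detected in each library, C1s1 stood at 232, 224 and 208 CPM (221, 489 and 259 UMIs). These levels lay close together: diabetic was 0.966 times none (0.822 to 1.14) and diabetic-Exercise 0.929 times diabetic (0.796 to 1.08), with both above 1 at 1.19 and 1.07 when total UMIs were the scale. C1ra was 118, 110 and 74.8 CPM (112, 239 and 93 UMIs). Its ratio of diabetic to none was 0.931 (0.741 to 1.18), or 1.14 with total UMIs, and that of diabetic-Exercise to diabetic was 0.682 (0.531 to 0.871). C1s1 was seen in 44.4%, 44.4% and 37.6% of fibroblast-like cells and C1ra in 29.2%, 29.1% and 21.8%, at median depths of 3406, 3074 and 2418.5 UMIs. In acinar-like cells, at the depths given above, C1s1 was seen in 0.31%, 0.52% and 0.26% and C1ra in 0.17%, 0.16% and 0.09%. In mural-like cells, the pericytes and smooth muscle around vessels, C1s1 had 12, 44 and 22 UMIs and C1ra 2, 11 and 6. Mesothelial-like cells, only 37, 10 and 14 in number, held 47, 20 and 20 UMIs of C1s1 and 34, 9 and 9 of C1ra.

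Serping1, the inhibitor of these proteases, was in the same cells at several times their level. In fibroblast-like cells it stood at 1012 CPM in none (963 UMIs), 1299 in diabetic (2833 UMIs) and 994 in diabetic-Exercise (1236 UMIs). The diabetic library was the highest of the 3, at 1.28 times none (1.19 to 1.38), and diabetic-Exercise was 0.765 times diabetic (0.715 to 0.818). Both directions held under all 13 alternatives. A Serping1 UMI was found in 73.6%, 77.7% and 57.9% of fibroblast-like cells, against 1.04%, 1.35% and 0.61% of acinar-like cells. In mesothelial-like cells, too few for TMM scaling, Serping1 was 1432, 2216 and 1566 unscaled CPM (290, 104 and 93 UMIs), highest in the 10 cells of diabetic. Acinar RNA took 43.2%, 20.3% and 23.3% of the UMIs of this class. The part of that difference in the order was not tested.

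In mural-like cells Serping1 had 14 UMIs in the 44 cells of none, 133 UMIs (338 CPM) in diabetic and 44 UMIs (165 CPM) in diabetic-Exercise. The ratio of diabetic-Exercise to diabetic was 0.488 (0.339 to 0.691), or 0.580 with total UMIs as the scale. Fibroblast markers in mural-like cells stood at 902.8, 2216 and 2666 unscaled CPM as a sum, but single markers differed: Dcn had 1, 135 and 35 UMIs and Col1a1 2, 11 and 78. The makeup of the class differed too. At clustering resolution 2, mural-like cells fell into a cluster led by Rgs5, with 117 cells of diabetic and 43 of diabetic-Exercise, and one led by Acta2, with 32 and 48. The part of either in the result was not tested. Endothelial-like cells held 1, 24 and 34 Serping1 UMIs, a ratio of diabetic-Exercise to diabetic of 2.68 (1.54 to 4.73). On the log2 scale this is 1.42, which came to 0.23 when likely doublets were kept. Fibroblast markers in endothelial-like cells moved in step, at 161.6, 443.9 and 2329 unscaled CPM. At clustering resolution 2, endothelial-like cells fell mostly into a cluster led by Fabp4, with 424 cells of diabetic and 156 of diabetic-Exercise, and one led by Glycam1, Ccl21a and Vwf, with 124 and 312. The part of these markers and of this makeup was not tested. The 12 lymphatic endothelial-like cells of diabetic held 12 Serping1 UMIs.

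C4b, the source of the C4 fragment that C1s deposits, was at 51.5 CPM in fibroblast-like cells of none, 108 in diabetic and 109 in diabetic-Exercise (49, 236 and 136 UMIs). It was 2.10 times higher in diabetic than in none (1.54 to 2.92), a direction kept under all 13 alternatives, and diabetic-Exercise over diabetic was 1.01 (0.812 to 1.25). The share of fibroblast-like cells with C4b went from 7.80% to 18.8% and 16.7%, with 0.58%, 2.06% and 0.97% in acinar-like cells. The difference sat in the cells with a UMI of Pi16, Mfap5 or Dpp4, genes of the adventitial type of fibroblast, a division made after the data had been seen. These cells, 62.7%, 56.5% and 54.5% of the class, held 17.0, 135 and 144 unscaled CPM of C4b (14, 184 and 112 UMIs). The remaining fibroblast-like cells held 109, 67.1 and 85.1 unscaled CPM (35, 52 and 24 UMIs), so that diabetic over none was 7.96 in the first and 0.616 in the second, or 6.08 (3.53 to 11.3) and 0.596 with the UMIs outside acinar markers as scale. In the library labelled none C4b was thus lower in the cells with these markers than in those without, and in the other libraries higher in unscaled CPM. With the UMIs outside acinar markers as scale, the level with the markers over that without was 0.133 (0.066 to 0.253) in none. It was 1.36 (0.992 to 1.88) in diabetic and 1.14 (0.727 to 1.85) in diabetic-Exercise, intervals that include 1.

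In macrophage-like cells C4b stayed between 63.2 and 88.4 CPM, with intervals of both ratios that include 1. Ductal-like cells, which line the tubes that carry pancreatic juice, had C4b at 8.10, 19.7 and 11.97 CPM (10, 114 and 77 UMIs). Diabetic over none was 2.43 (1.27 to 5.20) there and diabetic-Exercise over diabetic 0.608 (0.449 to 0.819). Within ductal cluster 6, which holds nearly all duct cells of none, C4b was 7.0, 20.3 and 10.8 unscaled CPM, the same order. Acinar-like cells had 0.973, 3.45 and 3.10 CPM (38, 177 and 121 UMIs), a ratio of diabetic to none of 3.55 (2.49 to 5.18). Thus C4b was higher in diabetic than in none in fibroblast-like, ductal-like and acinar-like cells alike, each with an interval above 1. C4b shares 32.4% of the 60-base words in its last 500 bases with its near copy C4a, which had 6 UMIs in all.

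C3 was the most abundant member and its level was highest in the mesothelial-like cells. There it reached 4752, 9525 and 6179 unscaled CPM (962, 447 and 367 UMIs) and was seen in 97.3%, 100% and 78.6% of the 37, 10 and 14 cells. In fibroblast-like cells C3 stood at 1603 CPM in none (1526 UMIs), 2206 in diabetic (4813 UMIs) and 1409 in diabetic-Exercise (1752 UMIs). Diabetic was thus highest in both classes: in fibroblast-like cells it was 1.38 times none (1.30 to 1.46), and diabetic-Exercise was 0.638 times diabetic (0.604 to 0.674). Both directions in fibroblast-like cells held under all 13 alternatives. Without the top cell of each library, which in diabetic held 315 UMIs or 6.54% of the sum, the ratios were 1.34 and 0.654. C3 was seen in 74.6%, 76.2% and 58.2% of fibroblast-like cells, or 58.6%, 63.4% and 49.3% after thinning, and in 2.11%, 2.71% and 1.64% of acinar-like cells. Among cells with Pi16, Mfap5 or Dpp4, C3 was 1325, 2860 and 2073 unscaled CPM, and among the other fibroblast-like cells 1357, 1197 and 507. With the UMIs outside acinar markers as scale, diabetic over none was 1.65 with the markers and 0.854 without, and diabetic-Exercise over diabetic 0.687 and 0.402. The higher C3 of diabetic was therefore found in the cells with these adventitial markers, while the ratio of diabetic-Exercise to diabetic was below 1 in both.

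**Figure D5:**
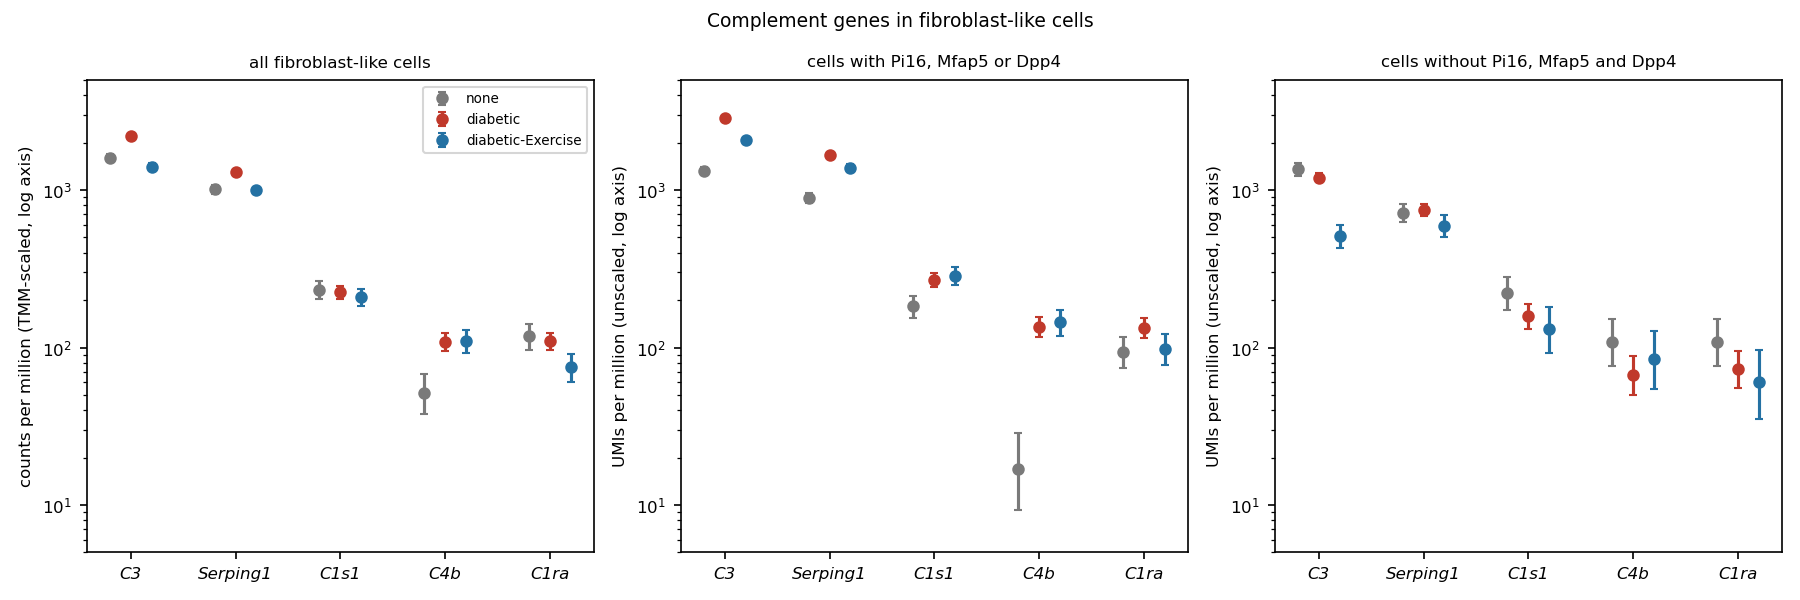
C3, Serping1, C1s1, C4b and C1ra in fibroblast-like cells of the 3 libraries on log axes with 95% Poisson intervals (counting error only), as TMM-scaled CPM in all cells and as unscaled CPM in cells with and without Pi16, Mfap5 or Dpp4. C3 and Serping1 peak in diabetic (2206 and 1299 CPM) in all cells, and C4b of none is at 17.0 CPM with the markers and 109 without.

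In ductal-like cells C3 ran in another order, at 30.8 CPM in none (38 UMIs), 73.7 in diabetic (427 UMIs) and 94.8 in diabetic-Exercise (610 UMIs). Diabetic was 2.40 times none (1.72 to 3.43) and diabetic-Exercise 1.29 times diabetic (1.13 to 1.46), although the second, 0.36 on the log2 scale, came to -0.39 when cells were thinned to 1000 UMIs. Different clusters held these cells: cluster 6 held 204 of the 205 cells of none, while cluster 14, led by Onecut2 and Tspan8, held 1 cell of none, 192 of diabetic and 329 of diabetic-Exercise. In cluster 14 C3 was 179 and 189 unscaled CPM in diabetic and diabetic-Exercise (257 and 440 UMIs). In cluster 6 it was 26.6, 40.2 and 50.8 unscaled CPM across the 3 libraries. In diabetic and diabetic-Exercise the duct cells of cluster 14 thus carried more C3 than those of cluster 6, and most of the ductal C3 of these libraries.

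Serping1 and Cfb followed the same division of the ducts. Serping1 had 3, 71 and 88 UMIs in ductal-like cells (2.43, 12.3 and 13.7 CPM), a ratio of diabetic to none of 5.04 (1.66 to 25.0). Diabetic-Exercise over diabetic was 1.12 (0.807 to 1.55), or 0.16 on the log2 scale against -0.79 in thinned cells. Serping1 was at 39.8 and 34.0 unscaled CPM in cluster 14 of diabetic and diabetic-Exercise but at 2.10, 3.31 and 2.69 in cluster 6 of the 3 libraries, so that within cluster 6 the libraries lay close together. Cfb had 0, 21 and 32 UMIs in ductal-like cells. It was seen in 0 of 205 cells of none, which allows a share of up to 1.46% when 3 counts are taken as the limit, and in 2.54% and 2.10% of the cells of diabetic and diabetic-Exercise, against 0.02% and 0.06% of acinar-like cells. In cluster 6, which holds 204 of the 205 cells of none, the shares were 0%, 1.68% and 0.661% in none, diabetic and diabetic-Exercise, and the counting intervals of the 3 levels overlapped. With 3 UMIs put in place of the 0 of none, Cfb was 1.49-fold higher in diabetic. The counting interval from the 0 and 21 UMIs reached down to 1.11-fold. Diabetic-Exercise over diabetic was 1.37 (0.767 to 2.50). Of the Cfb UMIs of these 2 libraries, 11 of 21 and 25 of 32 were in cluster 14. Cfb counts are uncertain, because 79.5% of its exon bases are also exon bases of Gm20547 on the same strand, to which no UMI was assigned. Diabetic and diabetic-Exercise, which held nearly all cells of cluster 14, also had the higher ductal C3, Serping1 and Cfb. The part of cluster 14 in this was not tested.

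For the comparison of the diabetic library with none, 28 pairs of a member and a class had at least 50 cells in both libraries and 20 UMIs over them. Of these, 7 were more than 2-fold higher in diabetic and 2 more than 2-fold lower, against 7.33% higher and 3.78% lower among all gene and class pairs. In ductal-like cells 4 of the 7 members measured were past 2-fold higher (C1qc, C4b, C3 and Serping1) and 0 lower, where 7.4% of genes were higher and 3.18% lower. The ductal C1qc ratio, 2.34 (0.576 to 20.6), rests on 22 UMIs of which 9 were in 1 cell. Within cluster 6, which holds 204 of the 205 ductal-like cells of none, unscaled CPM in none and diabetic was 26.6 and 40.2 for C3. It was 2.10 and 3.31 for Serping1, 7.0 and 20.3 for C4b and 1.40 and 4.72 for C1qc. The part of cluster 14 in the ductal count was not tested. In acinar-like cells 1 of 8 was higher (C4b) and 1 lower (C1qa, 0.447), beside 5.84% and 3.8% of genes. In fibroblast-like cells 1 of 7 was higher (C4b) and 1 lower (C1qa, 0.244 from 25 and 14 UMIs), beside 7.05% and 3.68%. In endothelial-like cells the only member measured, Serping1, was higher at 4.52 (0.738 to 186.0), beside 12.4% and 4.04%. In macrophage-like cells 0 of 5 passed 2-fold in either direction, beside 4.79% and 4.55%. The median log2 ratio of the ductal members was 1.23 against 0.06 for all genes there, and this median is the C1qc ratio itself. In none only C3, with 38 UMIs, had 20 or more in ductal-like cells. The other ductal members met the minimum through the diabetic library, so the ductal count is not ranked against those of other classes. With cells thinned to 1000 UMIs the count of 7 was 3.

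For diabetic-Exercise against diabetic, which shares the diabetic library with the comparison above, 34 pairs were measured. Of these 5 were past 2-fold higher and 1 lower, against 4.6% and 3.88% of all pairs. They were C1qa and C1qb in acinar-like cells (2 of 8 higher and 0 lower, beside 6.92% and 2.39% of genes) and C1qb and Serping1 in endothelial-like cells (2 of 4 higher and 0 lower, beside 4.44% and 5.36%). The endothelial C1qb ratio was 2.24 (0.925 to 5.52). The others were C1qa in fibroblast-like cells, at 2.76 (1.35 to 5.82) from 14 and 22 UMIs (1 of 7 higher and 0 lower, beside 3.44% and 4.55%), and Serping1 in mural-like cells (0 of 2 higher and 1 lower, beside 4.97% and 12.1%). Among 8 members in ductal-like cells (beside 3.68% and 1.46%) and 5 in macrophage-like cells (beside 3.88% and 3.84%) none passed 2-fold. Over the 13 alternatives the count of 5 ranged from 1 to 6, and it was 1 when likely doublets or the complement genes were kept, so nothing further is read from it. The median log2 ratio of the 5 members in macrophage-like cells was -0.32, against -0.01 for all genes there.

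Of 46 other genes of the complement system in the list used here, 18 reached 50 CPM in some class and library. Among the initiators, C1rb and C1s2, near copies of C1ra and C1s1, were in fibroblast-like cells at 49.4, 76.1 and 60.3 CPM and 76.7, 105 and 82.8 CPM. C1ra shares 17.2% of the 60-base words in its last 500 bases with C1rb, and C1s1 13.8% with C1s2, so reads there could be divided between copies. Fcna, which encodes ficolin A, a recognition protein of the lectin pathway, had 308, 40 and 94 UMIs in macrophage-like cells (268, 37.2 and 107 CPM). Fcna in diabetic was 0.139 times its level in none (0.097 to 0.193) and in diabetic-Exercise 2.87 times that in diabetic (1.96 to 4.26), a much larger swing than that of the C1q chains in the same cells. Colec12, a scavenger receptor with a collectin domain, was at 0.361 of its none level in the diabetic macrophage-like cells (80 and 27 UMIs). Cfp, which encodes properdin, the stabiliser of the alternative convertase, was in macrophage-like cells at 263, 191 and 147 CPM.

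Among the regulators, Clu, which encodes clusterin and is abundant in ducts, was at 8279, 8865 and 7597 CPM in ductal-like cells. Cd55, a membrane regulator, was at 155, 82.5 and 138 CPM in fibroblast-like cells, lowest in diabetic, where C3 was highest. Vtn, which encodes vitronectin, was 0.369 times as high in mural-like cells of diabetic-Exercise as of diabetic.

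Among the receptors, C3ar1, the receptor of the C3a fragment, was in macrophage-like cells at 174, 252 and 198 CPM, and C5ar1, the receptor of C5a, at 192, 212 and 149.6 CPM. Itgam and Itgax encode the alpha chains of complement receptors 3 and 4. Itgam was at 80.8, 163 and 172 CPM in macrophage-like cells, and Itgax had 16, 22 and 54 UMIs. Cd93 in endothelial-like cells was 0.481 times as high in diabetic-Exercise as in diabetic, beside the different makeup of that class given with Serping1. C1qbp in fibroblast-like cells was 0.361 times as high. Cd59a, Cr1l and Itgb2, also among the 18, are counted below.

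By class, the other complement genes past 2-fold higher and lower in diabetic over none were 1 and 3 of 18 in acinar-like cells, 2 and 2 of 10 in ductal-like, 2 and 1 of 7 in endothelial-like, 1 and 0 of 11 in fibroblast-like and 1 and 4 of 16 in macrophage-like cells. In diabetic-Exercise over diabetic they were 4 and 2 of 19 in acinar-like cells, 2 and 0 of 12 in ductal-like, 3 and 1 of 7 in endothelial-like, 1 and 1 of 11 in fibroblast-like, 2 and 0 of 15 in macrophage-like and 2 and 3 of 8 in mural-like cells. The backgrounds are those given above for each class. The ductal count of the members in diabetic over none was taken over libraries whose ducts lie in different clusters. The median log2 ratio of the other complement genes there was 0.30, beside 1.23 for the members, which is the C1qc ratio. This difference was not tested.

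C3, C4b and Cfb are acute-phase genes in many tissues, so 18 acute-phase and inflammatory genes were read beside them. In fibroblast-like cells, 9 of the 13 measured were past 2-fold lower in diabetic-Exercise than in diabetic and 0 higher, with a median log2 ratio of -1.18. Of all genes there, 4.55% were lower and 3.44% higher. Saa3, which encodes a serum amyloid A, had 3, 419 and 4 UMIs across none, diabetic and diabetic-Exercise, and Hp, which encodes haptoglobin, 15, 131 and 8. Both thus peaked in diabetic, as C3 and Serping1 did with far smaller ratios. C4b in fibroblast-like cells was 1.01 times as high in diabetic-Exercise as in diabetic. The other 7 lower genes were Cp (0.490), Il6 (0.264), Cxcl1 (0.275), Cebpb (0.465), Cebpd (0.442), Socs3 (0.343) and Irf1 (0.312). In diabetic over none, 2 of 13 were higher in fibroblast-like cells, Saa3 (60.9, with an interval from 20.7 to 297) and Hp (3.81). Another 3 were lower, including Ccl2 (0.195) and Cxcl1 (0.458), so the list had no single direction there. Of all genes in that comparison, 7.05% were higher and 3.68% lower.

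In ductal-like cells 4 of 11 were higher in diabetic than in none, namely Lcn2 (2.76), Cebpb (3.07), Cebpd (2.23) and Socs3 (3.95). Another 3 were lower, with Tnf (0.438) and Cxcl1 (0.380) among them. Of all genes there, 7.4% were higher and 3.18% lower. The ducts of these libraries lie in different clusters, as given above, and the part of that in these ratios was not tested. In diabetic-Exercise over diabetic 0 of 10 were higher and 3 lower, beside 3.68% and 1.46% of all genes. The lower ones were Lcn2 (0.438), Cxcl1 (0.437) and Cebpd (0.374). At full depth ductal C4b, at 0.608 (0.449 to 0.819), was also lower in diabetic-Exercise. Ductal C3, at 1.29, Serping1, at 1.12, and Cfb, at 1.37 (0.767 to 2.50), were not. With cells thinned to 1000 UMIs, however, the log2 ratios of C3 and Serping1 came to -0.39 and -0.79, and that of C4b went from -0.72 to -0.08. Cebpb and Cebpd encode C/EBP factors, whose core motif occurs in the C1qc, C1ra, C1s1 and C3 runs printed above. It was also found in 40.7% of all promoter windows, so a match describes letters and not control.

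Over 20 sums of a class in a library, covering 9 classes, the members were compared with 10863 genes by Pearson correlation of log2(CPM + 10). These points share libraries, depth and acinar RNA, so the values are descriptions. C1qb and C1qc were each other's nearest gene (r = 0.997), followed for C1qb by Clec10a and Fcgr3 and for C1qc by F13a1 and Fcrls. C1qa was nearest to Fcrls, Cd300c2 and Plbd1 (r = 0.971, 0.970 and 0.970), lower than for the other chains, and its r with C1qb was 0.97. C1s1 was nearest to Ddr2, Antxr1 and Prrx1, and C1ra to Col6a1, Dcn and Gpr153. Serping1 was nearest to Mxra8, C1s2 and Slit3. C3 was nearest to Gm10115, Zfhx4 and Eya2, C4b to Pla2g4a, Arap1 and Cmklr1, and Cfb to Gm43667, Mamld1 and Alg6 (best r = 0.813). Between members, C1s1 and Serping1 gave r = 0.98, C1ra and C1s1 0.96, C3 and Serping1 0.78, and C3 and C4b 0.73.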

How the data were processed

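RNA of single pancreas cells was measured in 3 libraries, 1 per group. The authors deposited raw UMI counts per gene and barcode for each library. Cell Ranger is named with version 7.1.0 per the submitters' processing notes and with version 6.1.2 per the file headers, and for the alignment build none is given in the sources used here. All 55450 gene IDs and symbols match GENCODE M21 (GRCm38).

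The cell filters were a minimum of 500 UMIs and 200 genes and a ceiling of 20% mitochondrial UMIs. Scrublet (in scanpy 1.11.5) marked no doublet, so the 5% of each library with the highest scores were removed. Counts scaled to 10000 per cell and logged gave 2000 variable genes, 30 principal components, 15 neighbours and Leiden clusters (leidenalg 0.10.2, resolution 1), with complement genes left out of the variable genes, the markers and the naming. Of 26 clusters, 24 were named from listed markers, giving 13 classes. UMIs were summed per class and library and scaled within a class by TMM (edgeR 4.0.16, R 4.3.3). Ratios were taken for classes with at least 50 cells in both libraries and genes with at least 20 UMIs over them. A class of 10 to 49 cells is given unscaled, an addition made after the data had been seen. Intervals are exact Poisson, conditional Poisson or Clopper-Pearson at 95%. A fold against 0 UMIs uses a floor of 3 UMIs in that library. Genes past 2-fold are named by size, with no test. Other complement genes are named at 50 CPM and 20 UMIs in a class and library, inflammatory genes when past 2-fold in a class with at least 50 UMIs, and the 3 most similar genes by correlation. The ratio script was tested on simulated data with known folds. The members and lists were chosen with earlier results of these data known. The 13 alternatives are given in the closing section. A gene of each list is not reported here.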

Additional observations from a re-analysis of the deposited data

Results flagged for a closer look

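In 5 cases a member's ratio of diabetic-Exercise to diabetic lay on one side of 1 in one class and on the other side in another, with both counting intervals clear of 1. Each is the difference of 2 log2 ratios that share their 2 libraries, and none of these differences was tested. For C1qa the difference between fibroblast-like and macrophage-like cells was 1.80 (1.46 against -0.34). For C1qb the difference between acinar-like and macrophage-like cells was 1.32 (1.0 against -0.32), and for C1qc it was 1.53 (1.0 against -0.53). The macrophage markers reported for the acinar-like class were also higher in diabetic-Exercise than in diabetic, and their part was not tested. For C3 the difference between ductal-like and fibroblast-like cells was 1.01 (0.36 against -0.65), but the ductal value came to -0.39 with cells thinned to 1000 UMIs. For Serping1 the difference between endothelial-like and mural-like cells was 2.46 (1.42 against -1.03). The endothelial value came to 0.23 when likely doublets were kept, and the mural value to -0.79 with total UMIs as the scale. Fibroblast markers and the makeup of both classes also differed between the libraries, and their part was not tested.

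The barcodes left out by the filters on cells, 1247, 1724 and 3364 in number, also held members. As a share of UMIs, C3 in the left-out barcodes of diabetic was 2.1 times that of none (1.59 to 2.82, from 66 and 206 UMIs). C4b was 2.36 times higher there (1.14 to 5.34, from 10 and 35 UMIs) and Serping1 2.79 times (2.0 to 3.97, from 44 and 182 UMIs). C1qa and C1qb went in the other direction, at 0.454 times none (0.352 to 0.582, from 162 and 109 UMIs) and 0.648 times (0.503 to 0.835, from 130 and 125 UMIs).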

How the results depend on the processing

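No paired analysis was possible because each group has 1 library. Of 742 log2 ratios of a member recomputed under 13 alternatives, 685 moved by less than their counting interval, 56 moved by more and 1 that had been past 2-fold changed sign: C1qc in ductal-like cells, diabetic over none, at -1.05 with the libraries clustered apart. A minimum of 10 or 50 UMIs only changes which ratios are listed. Its 62 and 48 values among the 685 were therefore the same by construction. The sign of 51 of 62 ratios, past 2-fold or not, was the same with TMM, total UMIs and the UMIs outside acinar markers as scale; 11 flipped, among them the 3 C1q chains in macrophage-like cells, diabetic over none. Of pairs higher in diabetic than in none, 7, there were 3 with cells thinned to 1000 UMIs. Of pairs lower, 2, there were 4 with doublets kept, with libraries clustered apart or with a minimum of 10 UMIs, and 1 with thinned cells, with acinar RNA subtracted or with a minimum of 50 UMIs. Of pairs higher in diabetic-Exercise than in diabetic, 5, there were 3 with a mitochondrial ceiling of 10%, at resolution 0.5 or with a minimum of 50 UMIs, 2 with thinned cells or when acinar RNA was subtracted, and 1 if doublets were kept or complement genes entered the clustering. Of pairs lower there, 1, there were 0 with total UMIs or no cell filter, 2 at resolution 2, and 4 with libraries clustered apart or acinar RNA subtracted. The cause of these changes was not tested, except that thinning and a higher minimum leave fewer pairs. With libraries clustered apart, macrophage-like cells held 64.6%, 68.0% and 70.5% of C1qa, C1qb and C1qc UMIs, and with acinar RNA subtracted 97.7%, 98.3% and 98.8%. Depth limits Cfb, with 100 UMIs, and every value of the mesothelial-like class.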

Other observations

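C2, the gene next to Cfb, encodes the protease that joins C4b in the convertase of the classical and lectin pathways. It had 403 UMIs in all, 104 of them in mesothelial-like, 99 in fibroblast-like and 60 in ductal-like cells. In ductal-like cells C2 had 3, 22 and 35 UMIs in none, diabetic and diabetic-Exercise, beside 0, 21 and 32 of Cfb.

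Inflammatory genes of the list were also past 2-fold in other classes. In acinar-like cells Lcn2 (17 and 415 UMIs), Cp (4.70-fold) and Cebpb (2.01-fold) were higher in diabetic than in none, and Socs3 was 0.398 times as high in diabetic-Exercise as in diabetic. In macrophage-like cells Hp was 6.41 times higher in diabetic than in none, and Hp (0.373), Il1b (0.292) and Cxcl1 (0.150) were lower in diabetic-Exercise than in diabetic. In endothelial-like cells Cebpb was 0.471 times as high in diabetic as in none. There, diabetic-Exercise over diabetic was 3.88 for Cp, 0.427 for Cebpd and 0.486 for Socs3. In mural-like cells it was 0.319 for Cebpd and 0.448 for Socs3.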
